A study of Mus musculus with 2 samples.

Results

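Immunoglobulin kappa variable (Igkv) genes were examined in single-cell RNA libraries of immune cells from the stomach of mice with autoimmune gastritis. Every gene whose symbol starts with Igkv was taken, which gave 160 of the 31053 genes in the feature table. The IL-27 group was 3 female TxA23 mice, whose T cell receptor transgene leads to autoimmune gastritis, given 800 ng of recombinant IL-27 (a linked p28-EBI3 protein) by a pump under the skin. The PBS group was 1 female and 1 male TxA23 mouse with pumps that held PBS. Pumps were placed at 3 months of age in both groups and worn for 4 weeks, and live CD45+ cells flushed from the gastric mucosa were loaded on a 10x Genomics 5′ assay. Each group was deposited as 1 library, so no comparison between the groups has a replicate, and treatment, sex, mouse and library cannot be told apart. By barcode suffix the cells fall into 3 IL-27 wells and 2 PBS wells, and the labels do not say that a well is a mouse.

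The kappa locus supplies the light chain of most mouse antibodies. In a developing B cell, recombination joins 1 of its many V genes to 1 of a few J segments ahead of the constant gene Igkc, and the cell as a rule then expresses that V gene alone. Mature B cells carry the chain in their antigen receptor, germinal centre B cells mutate and select it, and plasma cells transcribe it at very high levels for secretion. The share of B cells that express each V gene therefore describes the repertoire, while RNA summed over cells is weighted towards plasma cells.

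The IL-27 library held 20897 barcodes and 80121995 unique molecular identifiers (UMIs, counted RNA molecules), and the PBS library 12276 barcodes and 43501501 UMIs. After filters on detected genes and mitochondrial RNA, the libraries kept 20579 cells (IL-27) and 11793 cells (PBS), at medians of 3079 and 2958 UMIs. The libraries shared 355 barcode sequences. IL-27 well 3 stood apart, since Igkv genes took 0.716% of its UMIs, against 0.245% and 0.260% in the other IL-27 wells. The PBS wells had 0.412% and 0.474%. All intervals below are exact 95% intervals unless stated otherwise, and they cover counting error only.

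By GENCODE annotation (GRCm38, also called mm10) all 160 members lie on chromosome 6, and 100 are annotated as V genes and 60 as V pseudogenes. The 100 V genes lie between positions 67555497 and 70704177. Many are close copies. The median V gene is 94.4% identical in coding sequence to its nearest relative, and 16 are at least 97% identical to one. The pair Igkv1-117 and Igkv1-110 is shown because both are among the leading genes of B1-like cells and are 97.2% identical over the coding sequence, with 10 differences in all. Coding bases 55 to 174, introns removed, are given from the GENCODE transcripts, with the 5 bases that differ in capitals. All sequences are those of the reference, the genome of the C57BL/6J strain. The kappa alleles of these mice are not given in the sources used here, and how far they differ from the reference, and with that the count of each near-copy, was not tested.
Igkv1-117: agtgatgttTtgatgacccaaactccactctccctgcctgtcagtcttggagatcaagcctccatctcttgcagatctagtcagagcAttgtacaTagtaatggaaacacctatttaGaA
Igkv1-110: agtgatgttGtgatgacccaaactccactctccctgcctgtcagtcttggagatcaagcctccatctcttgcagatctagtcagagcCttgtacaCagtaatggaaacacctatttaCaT
Igkv10-96, used by the most B cells, and its nearest relative in sequence, Igkv10-94, are 95.4% identical. Coding bases 219 to 338 hold 13 of their 16 differences, again in capitals.
Igkv10-96: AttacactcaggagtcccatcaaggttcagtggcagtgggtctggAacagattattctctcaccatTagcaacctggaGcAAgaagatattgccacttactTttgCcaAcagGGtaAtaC
Igkv10-94: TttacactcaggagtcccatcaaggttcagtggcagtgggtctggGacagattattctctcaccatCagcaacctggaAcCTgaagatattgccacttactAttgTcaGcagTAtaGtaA
Coding bases 1 to 120 are shown for Igkv9-120 and Igkv6-13. Each led a cell with plasma cell markers whose V gene was also found in T cells of its well. These bases are also shown for Igkv1-88, which took a higher share of B1-like cells than of other B cells.
Igkv9-120: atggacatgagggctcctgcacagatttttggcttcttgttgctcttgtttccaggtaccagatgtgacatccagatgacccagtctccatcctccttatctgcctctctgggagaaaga
Igkv6-13: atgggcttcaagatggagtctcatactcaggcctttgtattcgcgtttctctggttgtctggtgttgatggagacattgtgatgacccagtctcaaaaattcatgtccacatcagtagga
Igkv1-88: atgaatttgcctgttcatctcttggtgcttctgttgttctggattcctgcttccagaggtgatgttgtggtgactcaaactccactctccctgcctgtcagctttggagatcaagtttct

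B-lineage cells other than plasma cells were gated on at least 3 UMIs from at least 2 genes of a B cell marker list that included Cd79a, Cd79b and Ms4a1, with no Cd3d, Cd3e or Cd3g UMI. The gate took 10877 IL-27 cells and 7645 PBS cells. Igkv RNA was found in 98.1% of the IL-27 B-lineage cells and 98.3% of the PBS ones, at median depths of 2823 and 2783 UMIs. In T cells, which do not rearrange the locus, the shares were 9.78% and 11.9% at 3931 and 4009 UMIs. Igkv genes together stood at 5336 UMIs per 1000000 UMIs of the cells (CPM; 5311 to 5360) in IL-27 B-lineage cells and 5489 CPM (5459 to 5520) in PBS ones. By well the values were 5884, 4460 and 5639 CPM for IL-27 and 5655 and 5338 CPM for PBS, so the groups overlapped and IL-27 well 2 was the low sample.

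Of the 160 members, 131 had a UMI in a kept cell and 29 had none. A cell was assigned to a V gene when it held at least 5 Igkv UMIs and at least 80% of them came from that gene. This assigned 7091 IL-27 cells and 5135 PBS cells. Of the 100 annotated V genes, 95 had an assigned cell, and the 5 without one were Igkv1-131, Igkv1-35, Igkv4-51, Igkv4-81 and Igkv8-26. Only 12 cells were assigned to pseudogenes, 5 to Igkv4-77, 4 to Igkv12-40 and 3 to Igkv4-60, and pseudogenes held 0.636% of the Igkv UMIs of B-lineage cells. At least 20 assigned cells were available for 68 members and at least 100 for 41.

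Usage was broad and alike in shape in both libraries. Assigned IL-27 cells used 94 genes and assigned PBS cells 93. The effective number of genes (inverse Simpson index, the number of equally used genes that would give the same spread) was 42.6 (delta-method interval 41.5 to 43.8) in IL-27 and 41.3 (39.9 to 42.7) in PBS. The wells gave 43.2, 39.8 and 42.6 for IL-27 and 41.4 and 39.99 for PBS, so they overlapped. The 10 leading genes took 36.1% of assigned IL-27 cells and 37.6% of assigned PBS cells.

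Igkv10-96 was the most used gene. It was expressed by 5.77% of assigned IL-27 cells (409 cells) and 5.82% of assigned PBS cells (299 cells). Its share by well was 5.33%, 6.78% and 5.38% in IL-27 and 5.996% and 5.63% in PBS, with both PBS wells inside the IL-27 range. Igkv1-117 followed with 4.61% of IL-27 and 4.95% of PBS cells. Its wells were 4.24%, 5.36% and 4.36% in IL-27 and 3.84% and 6.16% in PBS, so the 2 PBS wells lay further apart than any IL-27 wells. Its log2 ratio of shares was −0.42 without PBS well 1 and 0.27 without PBS well 2. Its near-copy Igkv1-110 took 3.61% and 4.11% of IL-27 and PBS cells. Igkv12-44 is described below. Among the other genes of the leading 10, Igkv6-17, Igkv3-4, Igkv6-15, Igkv12-46, Igkv1-135 and Igkv14-111 each lay between 2.50% and 3.58% in both libraries, with intervals of the IL-27 over PBS ratio that held 1.

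**Figure D1:**
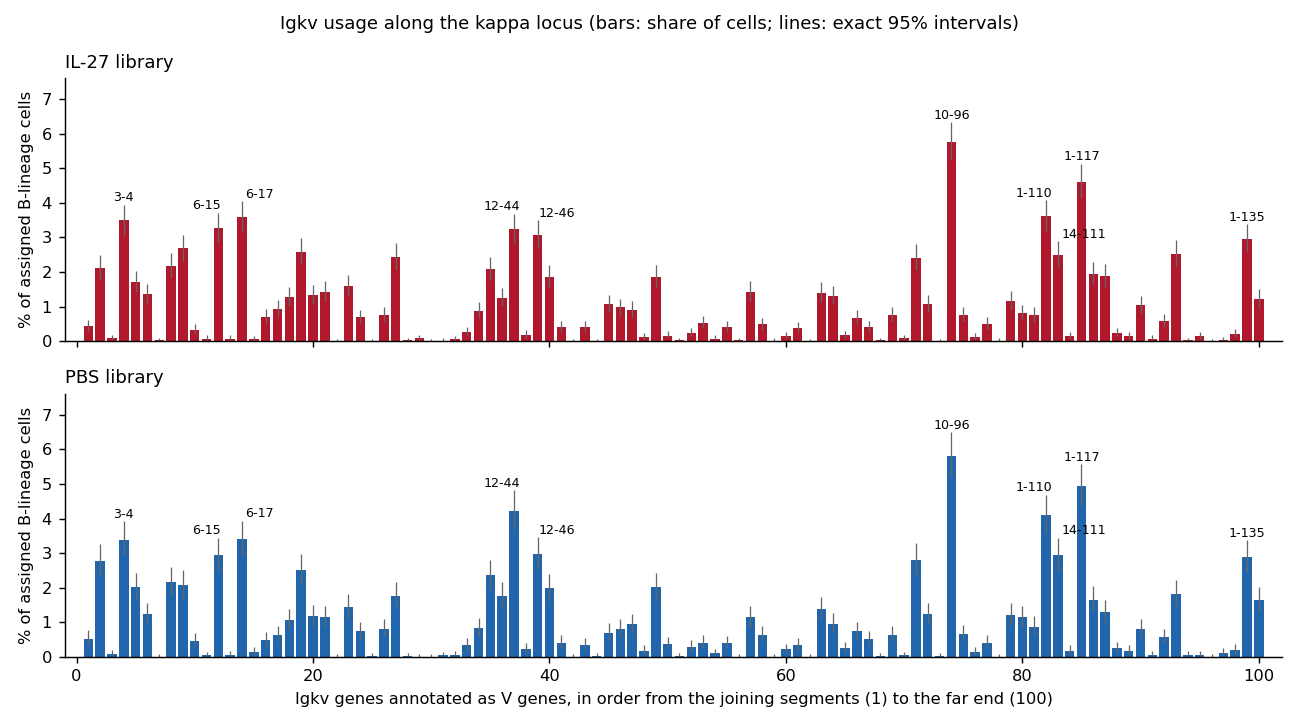
Share of assigned B-lineage cells (vertical axis, percent) for each of the 100 annotated Igkv V genes in locus order from the joining segments, IL-27 library above PBS library, with exact 95% intervals; the 10 leading genes are named without their Igkv prefix. Igkv10-96 is the highest bar in both libraries, at 5.77% in IL-27 and 5.82% in PBS.

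Usage was spread along the whole locus, as the plot of shares in locus order shows. Cut into 4 runs of 25 V genes, the run nearest the joining segments took 32.01% of IL-27 and 30.5% of PBS cells. The next runs took 22.1% and 23.2%, then 18.6% in both, and the far run 27.2% and 27.5%. Some V genes are read in the same direction as Igkc and others must be inverted to join, so strand was counted as well. The 38 genes on the plus strand took 47.4% of IL-27 and 47.6% of PBS cells, and the 62 on the minus strand 52.6% and 52.3%. By family, the 9 genes of family 6 took 14.6% of IL-27 and 13.0% of PBS cells, and the 9 of family 3 took 14.1% and 14.3%. Family 4, with 26 genes, took 10.7% and 10.2%. Family 17, with Igkv17-121 and Igkv17-127, took 4.40% of IL-27 and 3.14% of PBS cells.

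Few members moved by 1.5-fold in share of assigned cells between the libraries. Of the 68 members with at least 20 cells, 1 was higher in IL-27 by that fold (1.47%) and 2 were lower (2.94%), and the median log2 ratio was 0.02. The member that was higher was Igkv4-55, with 1.07% of IL-27 cells and 0.701% of those from PBS (ratio 1.53, 1.02 to 2.34). Its wells were 1.28%, 1.12% and 0.879% in IL-27 and 0.559% and 0.857% in PBS, so no IL-27 well was as low as a PBS well, the closest by a narrow margin. By Igkv UMIs in place of cells its log2 ratio was 0.24, under 1.5-fold, against 0.61 by cells. It was also under that fold with no cell filter (0.53), with assignment at 3 UMIs and 70% (0.35) or at 10 UMIs and 90% (0.50), without IL-27 well 1 (0.48) and without PBS well 1 (0.32). It lay at about that fold (0.58) without IL-27 well 2 and with at least 500 genes and at most 5% mitochondrial UMIs per cell. The lower ones were scarce genes. Igkv4-61 had 11 IL-27 and 19 PBS cells, a ratio of 0.419 (0.180 to 0.927), and Igkv4-79 had 10 and 11 cells, a ratio of 0.658 (0.251 to 1.71).

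Of the same 68 members, 11 had all IL-27 wells above both PBS wells (16.2%) and 5 had all below (7.35%). The 5 below were Igkv1-110, Igkv12-44, Igkv5-43, Igkv4-74 and Igkv6-13. For Igkv1-110 the nearest wells were IL-27 well 2 at 4.05% and PBS well 1 at 4.06%, so the gap was far within counting error. In follicular cells alone (at least 1 Fcer2a UMI) its log2 ratio was −0.62 (−1.06 to −0.18), past 1.5-fold, against −0.19 in all B-lineage cells. Its direction differed among the subsets described below. Its share was higher in IL-27 in Il4i1 activated (4.13% against 3.19%), Cr2-high (6.61% against 3.55%) and B1-like cells (10.5% against 7.14%). In other B cells it was lower (3.87% against 4.73%). Igkv12-44 was expressed by 3.24% of IL-27 cells (230 cells) and 4.23% of those from PBS (217 cells), and the ratio was 0.768 (0.635 to 0.928). The wells stood at 2.60%, 3.36% and 3.66% in IL-27 and 3.87% and 4.61% in PBS. Igkv5-43, which lies beside it in the locus, was at 1.26% and 1.77%, a ratio of 0.708 (0.523 to 0.959). Igkv3-2 was at 2.12% of IL-27 and 2.78% of PBS cells (ratio 0.760, 0.600 to 0.962), with IL-27 well 2 at 2.63% and PBS well 1 at 2.61%, so its wells overlapped. By Igkv UMIs in place of cells its log2 ratio was −0.02 (−0.08 to 0.05), against −0.40 by cells.

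Among members with at least 100 cells, the other low ratios were 0.6996 for Igkv16-104, 0.741 for Igkv2-137 and 0.849 for Igkv14-111, and all 3 intervals held 1. By Igkv UMIs in place of cells the log2 ratio of Igkv16-104 turned to 0.18, against −0.52 by cells. The high ones below Igkv4-55 were Igkv17-121 at 1.44 (1.06 to 1.96), Igkv17-127 at 1.38 (1.07 to 1.79) and Igkv6-32 at 1.38 (1.06 to 1.79). Igkv13-85 at 1.37 and Igkv9-124 at 1.29 had intervals that held 1. Igkv17-121 and Igkv17-127 are 97.4% identical to each other, and their values are uncertain as far as reads could be split between them. Igkv17-127 had 2.09%, 2.24% and 3.06% by IL-27 well, against 2.23% and 1.39% by PBS well, so its groups overlapped. Its log2 ratio (0.46) was 0.86 without PBS well 1, past 1.5-fold, 0.18 without PBS well 2 and 0.24 without IL-27 well 3. Igkv6-32 had 2.46%, 2.34% and 2.50% by IL-27 well, against 1.64% and 1.92% by PBS well, and its groups did not overlap.

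**Figure D2:**
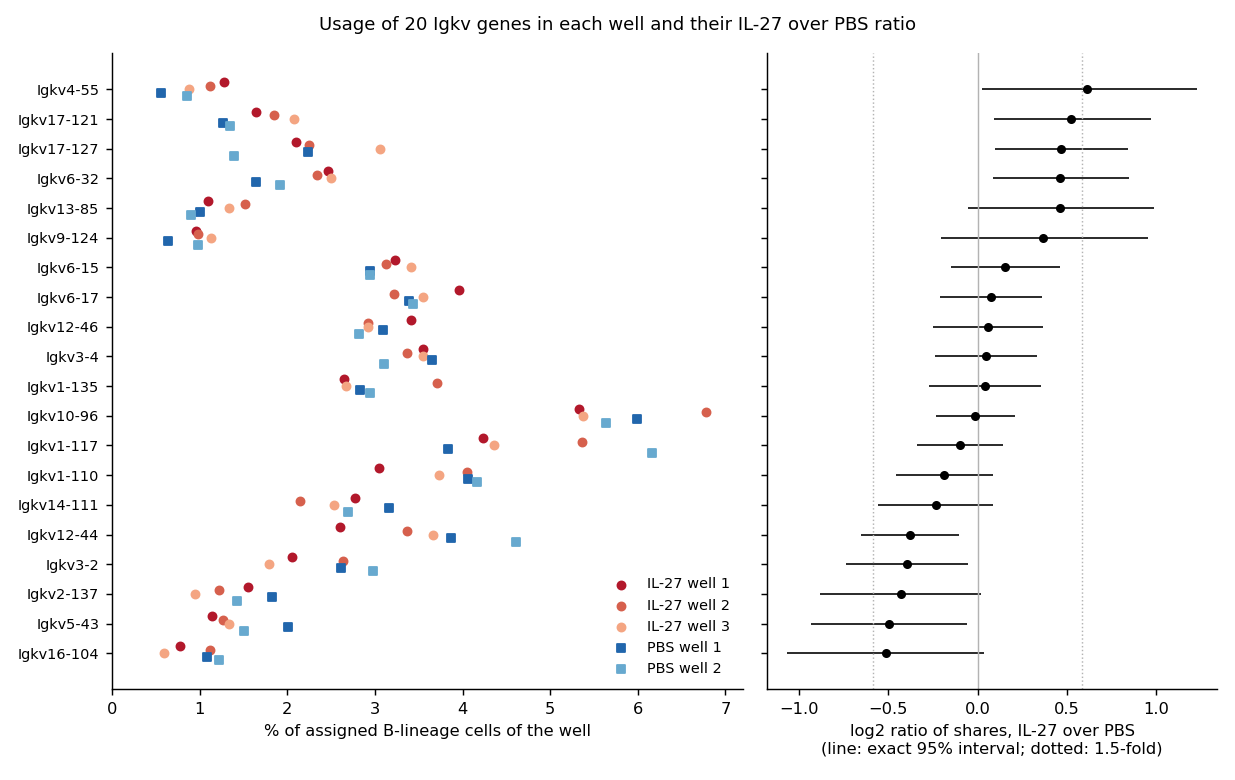
Left, share of assigned B-lineage cells (percent) in each well for 20 Igkv genes, the 10 most used and the 6 highest and 6 lowest ratios among genes with at least 100 cells; right, log2 ratio of the library shares, IL-27 over PBS, with exact 95% intervals and dotted lines at 1.5-fold. Igkv4-55 is the only one of these past a dotted line, and Igkv12-44 has all 3 IL-27 wells below both PBS wells.

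Wells of the same library also differed. Among the 41 members with at least 100 cells, pairs of IL-27 wells had 3, 4 and 3 genes at least 1.5-fold apart in share and the pair of PBS wells 7. Pairs of an IL-27 and a PBS well had 5 to 11. Between 9.80% and 11.7% of assigned cells would have to change gene to make 2 IL-27 wells alike and 10.5% for the PBS wells, against 9.62% to 12.4% for pairs across the libraries.

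Igkv RNA was also summed over B-lineage cells and given in CPM. Over all 12173 genes with at least 20 UMIs, 3.64% were at least 1.5-fold higher in IL-27 and 4.39% at least 1.5-fold lower. Of 108 Igkv members with that many UMIs, 8 were higher and 10 lower, and apart from Igkv6-13 they were pseudogenes or V genes with under 20 assigned cells. All IL-27 wells lay above both PBS wells for 2 members and below for 13, against 13.7% and 8.19% of all genes. The counts by share of cells, 11 above and 5 below, ran the other way. The median log2 ratio was 0.01 over the Igkv members and 0.02 over all genes tested.

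Other genes of the light chain pathway showed no 1.5-fold difference in B-lineage cells. The constant gene Igkc stood at 1234 CPM in IL-27 and 1221 CPM in PBS, and the lambda constant gene Iglc2 at 1749 and 1768 CPM. Of 16 light chain constant, joining and lambda variable genes, 12 were measured and 0 passed in either direction. All 14 listed factors of kappa promoters and enhancers were measured, among them the octamer coactivator gene Pou2af1 at 178 and 147 CPM and Irf4 at 34.8 and 36.8 CPM, and 0 passed, with a median log2 ratio of 0.04. Rag1, a gene of the recombinase, had 1 UMI in IL-27 and 0 in PBS B-lineage cells, and Rag2 had 0 in both. Among 7 measured heavy chain constant genes, 1 was higher in IL-27 (Ighg1, 19.6 against 8.02 CPM) and 3 were lower (Igha, Ighg2b and Ighg2c). Igha was at 24.1 CPM in IL-27 and 70.02 CPM in PBS, with 13.5, 31.6 and 25.5 CPM by IL-27 well and 16.8 and 119 CPM by PBS well. All 3 rested on PBS well 2. Without it Igha was at 24.1 against 16.8 CPM, Ighg2b at 5.67 against 5.71 CPM and Ighg2c at 0.789 against 1.09 CPM. Of 8 measured genes of other cell types, 1 was higher in IL-27 (Tff1 of gastric pit cells, 215 UMIs of which 196 were in IL-27 well 1, against 52 in PBS; without that well it was lower, at 0.767 against 2.25 CPM) and 5 were lower, while Cd3e had 0 UMIs, as the gate requires. The lower genes were Lyz2, Ncr1, Csf1r, Cpa3 and Cd8a. Lyz2 of myeloid cells was at 35.9 CPM in IL-27 and 141 CPM in PBS B-lineage cells. Without PBS well 2 Lyz2 was still lower in IL-27 (35.9 against 81.85 CPM), and Ncr1 was at 2.07 against 2.27 CPM. The other lower genes then turned higher in IL-27. Csf1r was at 0.99 against 0.63 CPM, Cpa3 at 0.32 against 0.18 CPM and Cd8a at 0.73 against 0.54 CPM. The 10 genes of that list summed to 48.7 to 58.1 CPM by IL-27 well and to 92.4 and 231 CPM by PBS well, and the part of such RNA in the results was not tested.

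Cells were next divided by markers. Subsets are given over both libraries, since several hold few cells, and the rest of the assigned B-lineage cells is the comparison. B1-like cells were gated on at least 2 of Bhlhe41, Zbtb32, Fcrl5 and Cd5. B1 cells are a self-renewing population known for a restricted repertoire. Of 319 B1-like cells, 189 were assigned, 105 from IL-27 and 84 from PBS. Their effective number of V genes, corrected for cell number, was 29.4, against 42.2 in follicular cells.

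Igkv1-88 was the gene whose share set B1-like cells apart most clearly among their 3 leading genes. It was used by 6.88% of B1-like cells (13 cells, 3.71% to 11.5%) and 0.607% of the rest (0.476% to 0.762%). The 13 cells came from every well, 3, 4 and 1 in IL-27 and 1 and 4 in PBS. Igkv1-117 was used by 10.1% of B1-like cells (6.16% to 15.3%) and 4.67% of the rest. Igkv1-110 was used by 8.995% (5.33% to 14.0%) and 3.74% of the rest. Where the heavy chain was known too, 12 of 34 Igkv1-88 cells of all B-lineage subsets paired it with Ighv3-2 (35.3%). Ighv3-2 was found in 6.43% of cells with both chains known. The 12 cells came from all 5 wells. By subset, 3 were B1-like, 2 Il4i1 activated, 2 Cr2-high, 1 follicular and 4 other B cells. Between libraries, Igkv1-117 had 8 of 105 IL-27 and 11 of 84 PBS B1-like cells, the last being 2 of 17 and 9 of 67 by PBS well (11.8% and 13.4%). Igkv14-111 had 1 of 105 IL-27 and 8 of 84 PBS cells, the last being 1 of 17 and 7 of 67 by PBS well.

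In mice, B1 cells that bind phosphatidylcholine are known to pair Ighv11-2 with Igkv14-126 and Ighv12-3 with Igkv4-91. These genes were chosen after their values were seen. Igkv14-126 was used by 2.65% of B1-like cells (5 cells, 0.864% to 6.07%) and 0.540% of the rest (0.417% to 0.688%). Both chains were known in 4324 B-lineage cells, and 4 of them paired Igkv14-126 with Ighv11-2, all 4 in the B1-like gate, 1 in IL-27 well 3, 1 in PBS well 1 and 2 in PBS well 2. Igkv4-91 was used by 0 of 189 B1-like cells, which allows a share of up to 1.93% by the exact interval. It met Ighv12-3 in 0 B-lineage cells and in 1 cell of PBS well 1 with plasma cell markers and 1 Cd3 UMI, where 1627 of 1632 Igkv UMIs were Igkv4-91.

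Subsets larger than the B1-like one were closer to the B-lineage average. Igkv10-96 led Il4i1 activated cells (6.52%) and follicular cells (6.13%), and Igkv1-117 led Cr2-high cells (5.66%).

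**Figure D3:**
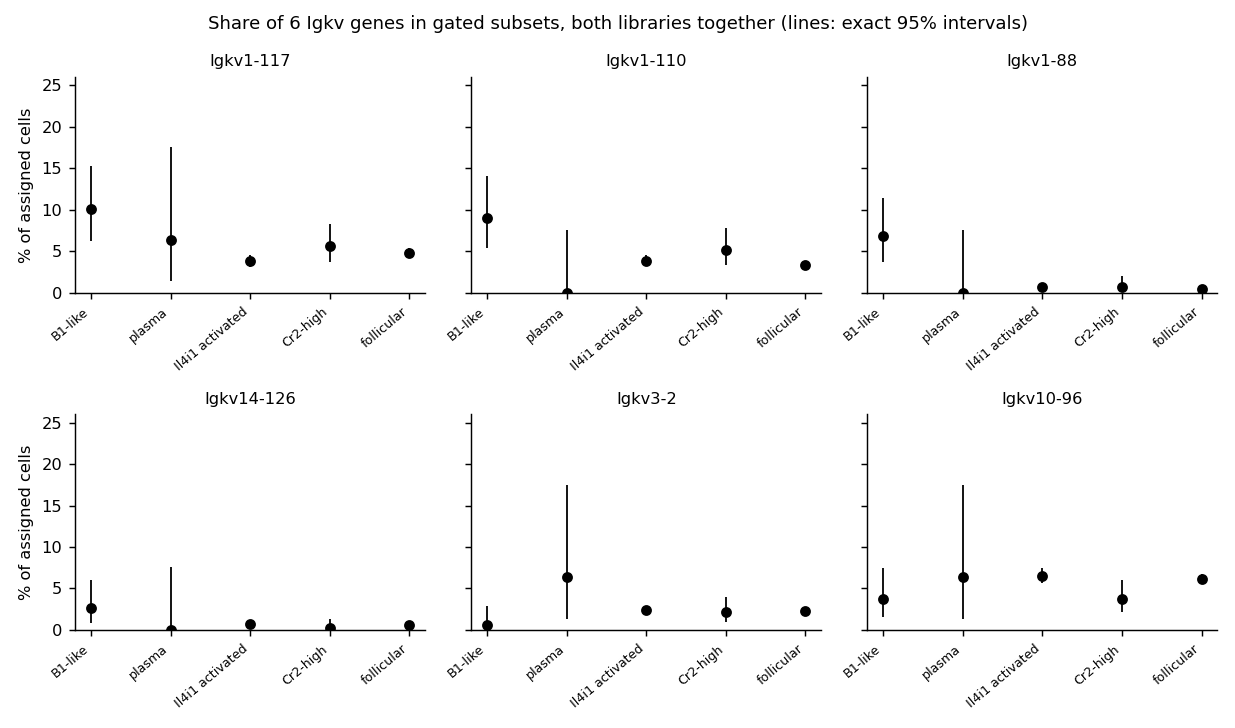
Share of assigned cells (percent) that express each of 6 Igkv genes in 5 gated subsets, both libraries together, with exact 95% intervals. Igkv1-88 stands at 6.88% in B1-like cells, and Igkv1-117 at 10.1%.

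Plasma cells were gated on at least 4 of 7 markers (Jchain, Mzb1, Xbp1, Sdc1, Prdm1, Derl3, Tnfrsf17), with at least 3 Jchain UMIs, at least 20 UMIs over the 7 and no Cd3 UMI. The IL-27 library had 43 of them, 6, 4 and 33 by well, and PBS had 11, 5 and 6 by well. They were 0.209% of IL-27 and 0.0933% of PBS cells but held 35.0% and 17.3% of all Igkv UMIs. In IL-27 well 3 the 33 plasma cells held 52.8% of its Igkv UMIs. Gated cells varied widely, and 23 of 43 in IL-27 and 8 of 11 in PBS had at least 1000 Igkv UMIs. Igkv took 0.21% to 48.1% of the UMIs of a gated IL-27 cell and 0.15% to 39.9% in PBS. Some low cells held many UMIs of the B cell marker list, such as 138 beside 7 Jchain UMIs in IL-27 well 3. Whether all gated cells are plasma cells was not tested, and counts by cell include them. Among plasma cells with at least 100 Igkv UMIs, Ighg1 was the leading heavy constant gene in 23 of 38 in IL-27, 19 of them in well 3, and in 0 of 10 in PBS, while Igha led in 9 and 6. Some of the 23 held few Ighg1 UMIs, as few as 8 in a cell of IL-27 well 3.

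A few cells set which V gene led the plasma cell RNA. In IL-27, Igkv9-120 gave 20396 of 115963 Igkv UMIs (17.6%), all of them in a pair of cells of well 3. In PBS, Igkv15-103 gave 6380 of 32834 (19.4%), all of them in a single cell of well 2. Counted by cells instead, 36 assigned IL-27 plasma cells used 25 V genes and 11 assigned PBS plasma cells used 10. Igkv6-17 was the most frequent, in 4 IL-27 and 2 PBS plasma cells.

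The richest cell, in IL-27 well 3, held 15221 Igkv UMIs, 48.1% of all its UMIs, and 15209 of them were Igkv9-120. It also expressed Ighv2-3 and Igha. A second cell of that well had the same 3 genes with 5194 Igkv UMIs. The other combinations seen in 2 assigned plasma cells of a well were also in IL-27 well 3. They were Igkv1-117 with Ighv5-4 and Ighg1 (2774 and 5629 Igkv UMIs) and Igkv6-23 with Ighv1-22 and Ighg1 (674 and 4782). A pair of gated cells of that well in which no gene reached 80% shared Igkv5-45 as leading and Igkv16-104 as next gene, with Ighv1-14 and Ighg1 (84 and 117 Igkv UMIs). A richer cell of that well had the same 4 genes in the other order, with 5280 Igkv16-104 and 83 Igkv5-45 UMIs. Another there held 151 Igkv5-45 and 140 Igkv16-104 UMIs, with Ighv2-2. These V genes also met in 9 B-lineage cells of 4 wells. Both chains were known in 48 plasma cells, and whether cells with the same genes are clonal relatives was not tested. A cell of IL-27 well 3 held 6425 Igkv1-88 and 5342 Igkv10-96 UMIs, so that no gene reached 80%.

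Plasma cells also give the counts of near-copies in a cell with much RNA of 1 gene. The Igkv1-117 cell with 5629 Igkv UMIs held 159 Igkv1-110 UMIs (2.83%). Other Igkv1-117 plasma cells did not show this. With 2774 Igkv UMIs the next gene was Igkv11-118 at 2 UMIs, and with 522 in PBS well 2 it was Igkv3-11 at 2 UMIs. In the Igkv10-94 cell with 1448 Igkv UMIs, 11 were Igkv10-96 (0.760%). In the Igkv9-120 cell above, 11 of 15221 were Igkv9-124, its nearest relative at 95.2% identity.

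**Figure D4:**
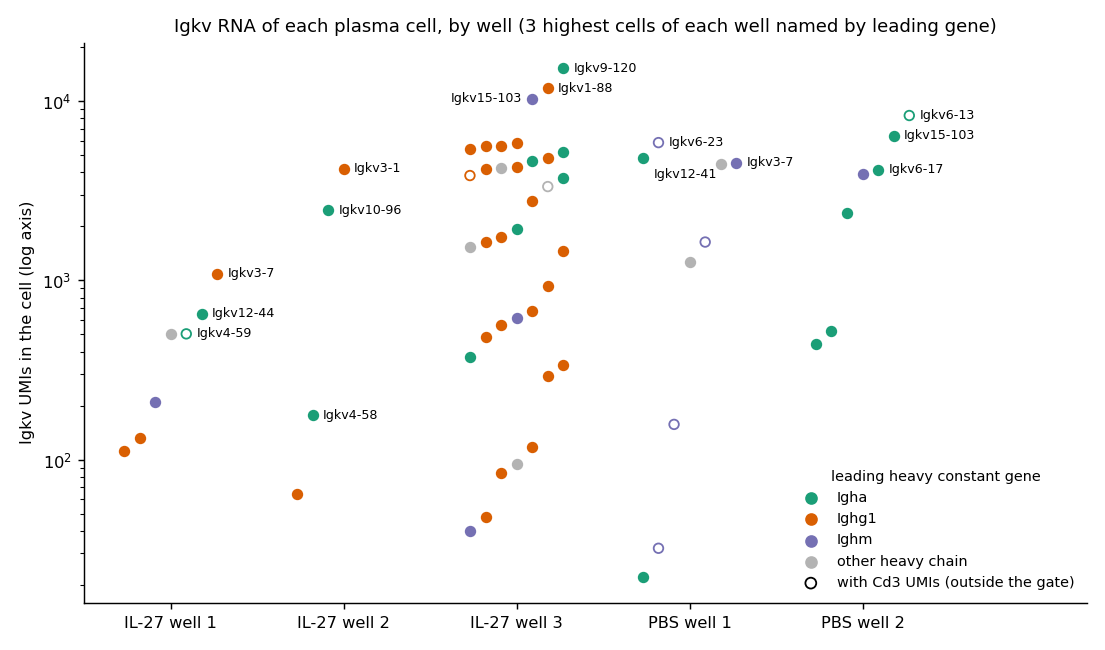
Igkv UMIs in each plasma cell (log axis) by well, IL-27 wells left of PBS wells, coloured by the leading heavy constant gene; open circles had Cd3 UMIs and lay outside the gate. IL-27 well 3 holds 33 of the 43 gated IL-27 cells and the richest cell, with 15221 Igkv UMIs.

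Not every B-lineage cell showed a single V gene. Of cells with at least 5 Igkv UMIs, 19.8% in IL-27 (1861 of 9395; 19.01% to 20.6%) and 18.6% in PBS (1238 of 6664; 17.7% to 19.5%) held a further V gene with at least 3 UMIs and 20% of the total. Cells with 2 such genes had more RNA, with medians of 3137 UMIs in IL-27 and 3050 in PBS, against 2832 and 2769 in cells with 1 gene. The combinations were diverse, with 1622 different pairs of which 956 were seen once. Igkv1-135 was in 350 such cells, 49.4% of the cells that showed it in either way. The paired genes were no more alike in sequence than members at large, with a median identity of 63.7%, against 63.1% over all pairs. Scrublet, a doublet caller, marked 0.376% of these cells and 0.113% of cells with 1 gene in IL-27, and 0.242% and 0.0584% in PBS. It marked only 1 cell of PBS well 2, so it did not work there, and the part of doublets was not tested.

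T cells were gated on at least 2 UMIs of Cd3d, Cd3e and Cd3g with no UMI of the B cell marker list. The 6379 IL-27 T cells held 678 Igkv UMIs and the 2220 PBS T cells 295. That is 22.5 CPM (20.9 to 24.3) in IL-27 and 27.3 CPM (24.3 to 30.6) in PBS, a small fraction of the level in B-lineage cells. By well the values were 20.01, 14.4 and 34.0 CPM in IL-27 and 27.1 and 27.7 CPM in PBS. IL-27 well 3, the well with the most plasma cells, was the highest of all, and the groups overlapped. Thinned to 1000 UMIs per cell, 2.71% of IL-27 and 3.37% of PBS T cells had an Igkv UMI. Most T cells with any had 1 UMI (583 of 624 in IL-27 and 242 of 264 in PBS), and the highest cells had 7 and 9. NK cells were at 32.3 CPM in IL-27 and 39.96 CPM in PBS, and myeloid cells at 34.6 and 20.1 CPM, each from 12 to 32 Igkv UMIs. Neither direction held across wells. Of the 15 IL-27 UMIs in myeloid cells 12 were in IL-27 well 3, without which the level was 11.3 against 20.1 CPM, and without PBS well 2 it was 34.6 against 50.7 CPM. In NK cells IL-27 well 3 gave 9 of 15 UMIs, and the levels were 16.6 against 39.96 CPM without it, 48.5 against 39.96 CPM without IL-27 well 2 and 32.3 against 26.2 CPM without PBS well 2.

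Of 12326 genes tested in T cells, 3.17% were at least 1.5-fold higher in IL-27 and 10.4% lower. Of the 19 Igkv members with at least 20 UMIs, 2 were higher (10.5%) and 6 lower (31.6%). The higher ones rested on IL-27 well 3. By IL-27 well, Igkv9-120 had 6, 2 and 30 UMIs and Igkv15-103 had 5, 2 and 13. Without IL-27 well 3, 0 members were higher and 7 lower, of 11 tested. All IL-27 wells lay above both PBS wells for 0 members and below for 2 (Igkv14-111 and Igkv6-23), against 9.08% and 12.7% of all genes. The median log2 ratio was −0.33 over the 19 members and −0.05 over all genes. Igkc was at 13.0 CPM in IL-27 and 26.4 CPM in PBS T cells, with 13.5, 11.97 and 13.3 CPM by IL-27 well and 24.3 and 30.9 CPM by PBS well. RNA of other cell types was lower in IL-27 T cells too. Of 7 listed genes of cells other than T cells, 6 were measured and all 6 were at least 1.5-fold lower in IL-27, among them Lyz2 at 47.4 against 253 CPM, Ncr1 of NK cells at 2.92 against 13.97 CPM and Epcam of epithelium at 4.52 against 9.16 CPM. Without PBS well 2 the epithelial gene Tff1 turned higher (6.38 against 3.102 CPM). The 7 genes summed to 28.4, 94.7 and 83.0 CPM by IL-27 well and to 166 and 601 CPM by PBS well, and their part in the Igkv and Igkc values was not tested.

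Which V genes appeared in T cells differed by well. Igkv6-13 gave 14 of the 94 Igkv UMIs in T cells of PBS well 2 (14.9%; 8.39% to 23.7%), in 14 different cells. By IL-27 well it gave 0, 0 and 3 UMIs, and PBS well 1 had 1. PBS well 2 also held a cell with plasma cell markers and 8264 Igkv6-13 UMIs, the highest of the PBS library, which lay outside the plasma gate because it had 14 Cd3 UMIs. It expressed Igha, as did other plasma cells. Among gated plasma cells with at least 100 Igkv UMIs, Igha led in 1, 2 and 6 by IL-27 well and in 1 and 5 by PBS well. Igha UMIs in T cells numbered 0, 6 and 4 by IL-27 well and 21 and 101 by PBS well. Whether these UMIs came from any such cell was not tested.

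The V genes of plasma cells were not always those most found in T cells of the same well. This comparison took the leading genes of the 3 richest cells with plasma cell markers of each well, 15 combinations of gene and well. Cd3 UMIs were allowed. Igkv4-59 (IL-27 well 1), Igkv6-23 (PBS well 1) and Igkv6-13 (PBS well 2) thus came from cells outside the gate. The gene's share of the T cells' Igkv UMIs was highest in its own well in 9 and higher in another well in 6. Igkv3-7 and Igkv15-103 each led such a cell in 2 wells, so each had to fall among the 6 in 1 of them. For both, the highest share was in the other of the 2 wells. It was 5.97% for Igkv3-7 in PBS well 1 and 4.32% for Igkv15-103 in IL-27 well 3. Some of the 9 and of the 6 rested on few UMIs. Igkv4-58 had 1 of 124 in IL-27 well 2 and 0 elsewhere. Igkv12-44 was at 5.14% in IL-27 well 1 and 4.26% in PBS well 2, with overlapping intervals. Among the 9, Igkv9-120 gave 30 of 301 Igkv UMIs in T cells of IL-27 well 3 (9.97%; 6.83% to 13.9%), where the richest plasma cell expressed it. Elsewhere it gave 6 and 2 UMIs (IL-27 wells 1 and 2) and 4 and 3 UMIs (PBS wells). Igkv3-1 gave 10 of 124 in IL-27 well 2 (8.06%; 3.94% to 14.3%), where a plasma cell held 4169 UMIs of it, against 2 and 0 (IL-27 wells 1 and 3) and 1 and 0 (PBS wells). Among the 6, Igkv1-88, with 6425 UMIs in a plasma cell of IL-27 well 3, gave 2 of 301 Igkv UMIs in T cells there (0.665%). It gave 2 of 253 in IL-27 well 1 (0.791%) and 2 of 201 in PBS well 1 (0.995%). Igkv6-17, with 4114 UMIs in a plasma cell of PBS well 2, gave 3 of 94 there (3.19%). It gave 20 of 301 in IL-27 well 3 (6.64%), where plasma cells held 5791 and 4270 UMIs of it. Igkv12-41, with 4828 UMIs in a plasma cell of PBS well 1, gave 5 of 201 there (2.49%), against 7 of 253 in IL-27 well 1 (2.77%). Igkv4-59 gave 5 of 253 in its own IL-27 well 1, against 4 of 124 in IL-27 well 2. For Igkv1-88, Igkv6-17, Igkv12-41 and Igkv4-59 the intervals of the wells compared here overlapped. By summed shares, the composition in T cells was 42.9% to 84.8% apart from that of plasma cells of the same well, whose RNA rests on few cells. It was 21.5% to 40.8% apart from that of B-lineage cells of the same well. T cells of IL-27 wells 1 and 2 and PBS well 1 were 84.8%, 79.6% and 72.85% apart from their own plasma cells. They lay nearer to those of IL-27 well 3 (74.5%, 71.5% and 65.2%). T cells of IL-27 well 3 and PBS well 2 were nearest to their own (42.9% and 68.6%), for PBS well 2 by little (70.03% for those of IL-27 well 3). The nearest B-lineage cells were of another well for IL-27 well 2 and both PBS wells, by narrow margins. These were 38.6% against 40.4% for its own in IL-27 well 2, 24.3% against 25.2% in PBS well 1 and 38.95% against 40.8% in PBS well 2. No interval was computed for these distances, so such small differences do not rank the wells. How the RNA came to be counted in T cells was not tested.

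**Figure D5:**
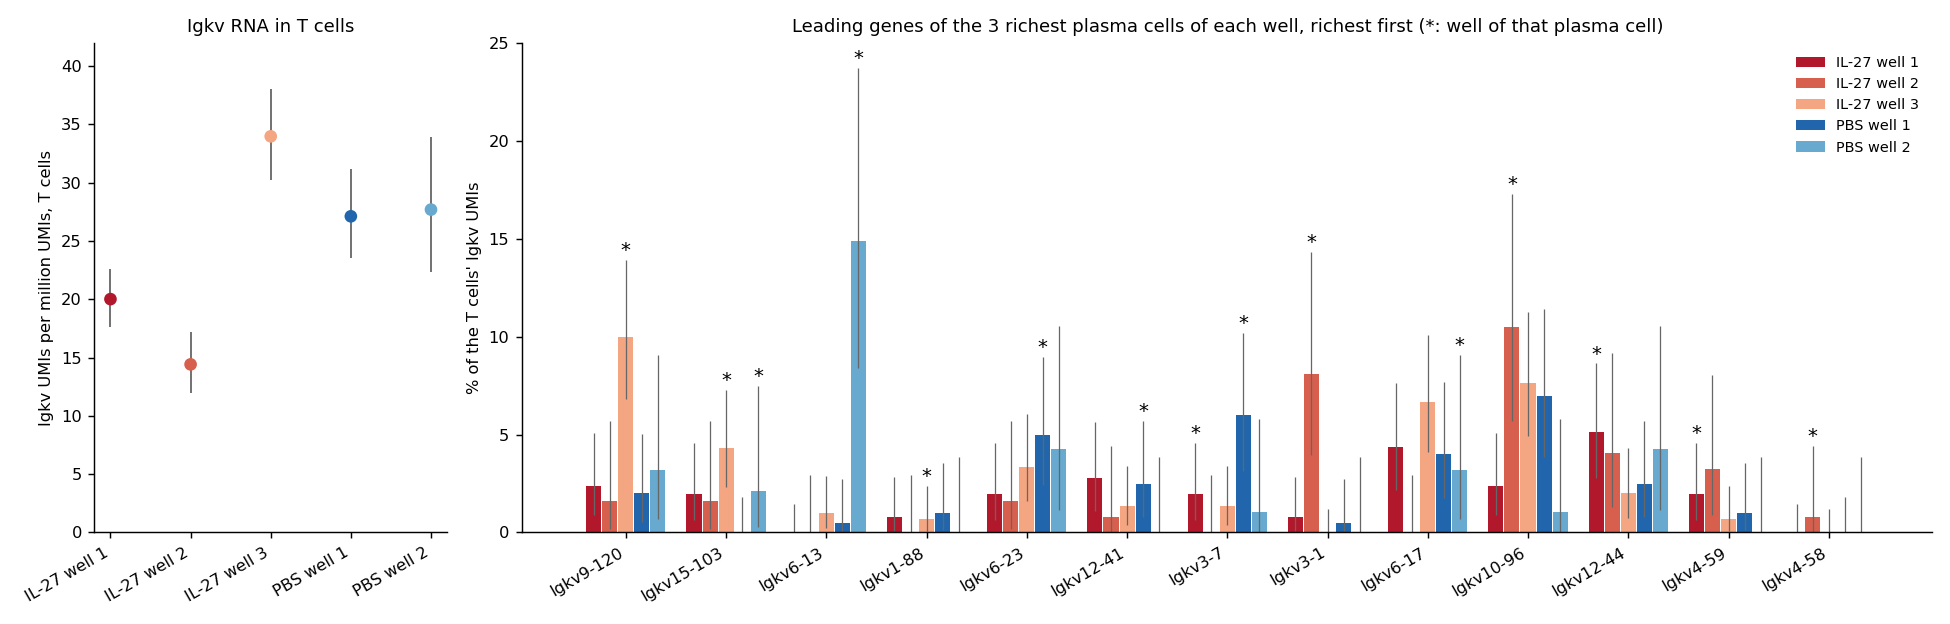
Left, Igkv CPM in T cells of each well with exact Poisson 95% intervals. Right, percent of the T cells' Igkv UMIs that came from each of 13 genes, by well, with exact binomial 95% intervals. The genes led the 3 richest cells with plasma cell markers of each well, Cd3 UMIs allowed, and a star marks the well of that cell. The Igkv6-13 cell of PBS well 2 lay outside the plasma gate. IL-27 well 3 is highest on the left at 34.0 CPM, Igkv6-13 reaches 14.9% in PBS well 2, and Igkv1-88 stays at 0.665% in IL-27 well 3.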

How the data were processed

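Members and gene lists were chosen with earlier results of these data known. The deposited matrices list, per the file headers, whole-number UMI counts for each gene in each barcode, not normalized. Cell Ranger 3.0.0 with mm10 is named in the submitters' processing notes, while the matrix headers give software version 3.1.0. How reads shared by near-identical V genes were counted is not given in the sources used here.

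Cells needed at least 200 genes and at most 10% mitochondrial UMIs. Cells were gated on raw marker UMIs rather than clustered (some gate markers, and a B cell subset defined with one of them, are not reported here), and doublets were kept in the main values and removed in an alternative (Scrublet per well, in scanpy 1.11.5). Locations and sequences came from GENCODE M21, in which all 160 members were found. Counts were summed per library and well in CPM. Shares have exact binomial intervals (Clopper-Pearson), CPM exact Poisson intervals and ratios exact conditional intervals, at 95%. With 1 library per group no test was run and no p-value is given, and a count of genes uses a fixed 1.5-fold rule. Ratio intervals and the assignment of cells were tested on simulated data. PCR duplicates are removed by UMIs, and intervals cover counting error only. Depth was 2763 to 3185.5 median UMIs per cell by well.

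Named genes were the 10 most used, the 6 highest and 6 lowest usage ratios among members with at least 100 cells, the 3 leading genes of each subset, genes leading a plasma cell, Igkv12-44, Igkv1-117, Igkv3-2, Igkv5-43 and the listed genes. Counts of 5 or fewer were named after their values were seen. In T cells no member had 100 UMIs, so the rule named none there. Alternatives changed the cell filter, doublets, assignment, minimum, fold, scaling and gates, and left out each well.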

Additional observations from a re-analysis of the deposited data

How the results depend on the processing

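No paired analysis was possible because each group has 1 library and no test was run. The log2 ratios of Igkv CPM kept their sign under every setting other than leaving out a well. The number of members 1.5-fold higher in share (1) became 0 with no cell filter, 2 with at least 500 genes and at most 5% mitochondrial UMIs, 0 with assignment at 3 UMIs and 70%, 9 by share of Igkv UMIs, 9 with a minimum of 1 cell, 0 at 2-fold and 6 in follicular cells. The number lower (2) became 4 with assignment at 3 UMIs and 70% and also 4 at 10 UMIs and 90%, 9 by share of UMIs, 11 with a minimum of 1 cell, 0 with a minimum of 100 cells and 1 at 2-fold. The effective number was 44.95 in IL-27 and 44.48 in PBS with assignment at 3 UMIs and 70%, 35.63 and 34.25 at 10 UMIs and 90%, and 40.76 and 38.74 by UMIs. The 10 leading genes then took 34.4% and 35.24%, 41.22% and 43.08%, and 38.7% and 39.78%. In T cells the number of members higher (2) became 1 with at least 500 genes, 1 at 2-fold, 34 with a minimum of 1 UMI, 20 with B-lineage genes allowed and 0 in CD4 T cells, and the number lower (6) became 27, 31 and 0 under the last 3 of these. The members tested numbered 19 in the main analysis, 16 with at least 500 genes, 84 with a minimum of 1 UMI, 77 with B-lineage genes allowed and only 1 in CD4 T cells, so that the 0 there says nothing. A minimum of 100 UMIs left no member. The log2 ratio of Igkv CPM in T cells (−0.28) became −0.95 with B-lineage genes allowed and −0.49 in CD4 T cells. The set with B-lineage genes allowed takes in cells with plasma cell markers and at least 2 Cd3 UMIs. Among them are a PBS cell with 8285 Igkv UMIs and IL-27 cells with 3833 and 3327. The main gate held 678 Igkv UMIs in IL-27 and 295 in PBS. The leading gene's share in plasma cells was 16.5% in IL-27 and 16.94% in PBS (then Igkv6-13) with Cd3 allowed, and 19.86% in IL-27 with at least 150 Igkv UMIs and 80% from 1 gene, both chosen after seeing the data. By UMIs in place of cells, the log2 usage ratio of Igkv16-104 was 0.18, against −0.52 by cells, that of Igkv9-124 −0.13, against 0.37, and that of Igkv3-2 −0.02, against −0.40. In follicular cells Igkv9-124 was at −0.02, Igkv1-110 at −0.62 (−0.19 in all), Igkv14-111 at 0.18 (−0.24), Igkv1-117 at 0.18 (−0.10), Igkv1-135 at −0.28 (0.04) and Igkv17-121 at 0.04 (0.52). The cause of these shifts was not tested.

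Leaving out each well in turn, the log2 ratio of Igkv CPM ranged from −0.09893 to 0.06381 in B-lineage cells (above 0 without IL-27 well 2) and from −0.6212 (without IL-27 well 3) to −0.08326 in T cells. The effective number ranged from 41.86 to 43.28 in IL-27 and from 39.99 to 41.36 in PBS, and the share of the 10 leading genes from 35.34% to 36.71% and from 36.83% to 38.73%. Members higher in share numbered 0 to 5 and lower 2 to 6, and in T cells 0 to 2 and 1 to 7, of 10 to 16 members tested. The leading gene's share in plasma cells ranged from 17.59% to 43.66% in IL-27 (the highest without well 3, then Igkv3-1) and from 19.43% to 35.95% in PBS (the highest without well 1).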
